A study of Mus musculus with 24 samples.

Results

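The 12 input libraries of mouse hippocampus, out of 24 libraries in the series, were read as a 2 by 2 design of genotype and fear conditioning, to ask for which genes the change after conditioning differed between the genotypes. For each gene the interaction is a difference of differences on the log2 scale: 1 h minus naive in knock-in mice, minus 1 h minus naive in control mice. A negative value means that the knock-in change was lower than the control change. Of 51733 genes in the deposited table, 14783 reached 1 CPM (a count normalised by library size) in at least 3 of the 12 inputs and were tested. The other 36950 did not pass this filter.

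Conditional knock-in (cKI) mice were eIF2αA/A with a floxed transgene of normal eIF2α (fTg+), which CaMKIIα-Cre removes. Their 2 groups were taken 1 h after conditioning or naive, with 3 mice each. Control mice, labelled as standard CaMKIIα-Cre+, were likewise taken 1 h after conditioning or naive, with 3 mice each. The labels do not say whether the controls carry an altered eIF2α allele. All mice were males of 2 to 3 months on a C57BL/6 background of unstated substrain. All also gave RiboTag pulldown libraries, made with an antibody to the HA tag on ribosomes of Cre-positive cells. Conditioning paired a tone with a foot shock. A weak and a strong protocol are described, and which one these mice received is not given. Cre acts in excitatory forebrain neurons, cells without Cre keep the transgene, and each input holds RNA of all cells in the pooled hippocampi of 1 mouse.

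The α subunit of eIF2, a factor that brings the initiator tRNA to the ribosome, is phosphorylated on a serine by stress-activated kinases. Phosphorylation slows initiation on most transcripts and favours a few, such as Atf4, which have upstream open reading frames, and it is known to restrain the formation of long-term memory in the hippocampus. The knock-in alanine cannot be phosphorylated. Fear conditioning is itself a stressor: it raises glucocorticoids, which act on transcription through a nuclear receptor, and it induces immediate-early genes in neurons.

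Input libraries held 28.8 to 37.7 M counts and 22130 to 23453 genes with at least 1 count. Mitochondrial genome transcripts took 2.86 to 3.36% of the counts. The input of naive cKI replicate 3 differed strongly for single genes, where 82 of the tested genes lay over 4-fold from the other mice of the group, and Pter, 9530082P21Rik, mt-Nd6 and Pla2g2f were higher there by 6.10, 6.04, 4.61 and 4.51 on the log2 scale. Naive control replicate 2 lay farthest from its group over all tested genes, with a median absolute log2 deviation of 0.17 against 0.0565 to 0.112 in the other inputs. The chi-square per gene of its counts against replicates 1 and 3 was 22.9 and 28.6, while replicates 1 and 3 gave 4.03 against each other. All 18 excitatory neuron markers passed the filter, with Camk2a at mean levels of 3162 CPM in cKI mice at 1 h and 3031 in naive cKI mice, against 2876 in controls at 1 h and 2643 in naive controls. The naive controls held 2777, 2035 and 3118 CPM, so replicate 2 was the low mouse. Library names give the sequencing lane: all cKI inputs and naive control replicates 1 and 2 were in lane 4, and naive control replicate 3 and all 3 controls at 1 h were in lane 5. No lane holds all 4 groups, so the interaction could not be taken within a lane. It was refitted with lane as a covariate, where the control change rests on naive control replicate 3, the single naive control in lane 5.

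By the edgeR test, the change after conditioning differed between cKI and control mice for Hif3a, Nnt, Etnppl, Adipor2 and an uncharacterised gene model. With lane as a covariate only Hif3a kept its call. The cKI change was taken within lane 4, while the controls at 1 h were all in lane 5. Lane and the control change are therefore largely confounded. Across gene groups, the interaction was mostly negative for glucocorticoid-induced and unfolded protein response genes and mostly positive for myelin markers, and no immediate-early transcription factor was called. Other lists leaned to one sign as well: 65 of 73 nuclear oxidative phosphorylation genes were positive and 17 of 19 circadian clock genes were negative. Over all genes 49.5% were positive. The oxidative phosphorylation median ran from -0.03 to 0.11 with 1 library left out, so its sign depended on single libraries. In all, the interaction was called for 6 of 14783 genes (0.0406%), 2 of them positive (0.0135%) and 4 negative (0.0271%), with edgeR's quasi-likelihood test at a Benjamini-Hochberg adjusted p under 0.05. Without adjustment 723 genes (4.89%) had a p under 0.05, of which 308 were positive (2.08%) and 415 negative (2.81%). The median over all genes was -0.0014, and the median standard error of an interaction was 0.119 on the log2 scale. After conditioning 3 genes changed in cKI mice (0.0203%), with 1 higher (0.00676%) and 2 lower (0.0135%). In control mice 142 genes changed (0.961%), with 79 higher (0.534%) and 63 lower (0.426%). Between genotypes 45 genes differed at 1 h (0.304%), 11 higher in cKI (0.0744%) and 34 lower (0.23%), and 146 in naive mice (0.988%), 49 higher (0.331%) and 97 lower (0.656%). The cKI and control inputs at 1 h were in different lanes, so genotype at 1 h and lane cannot be told apart. With lane as a covariate 1 gene was called at 1 h, which was not among the 45, and 133 in naive mice, 96 of them among the 146. These contrasts and the interaction come from the same libraries, and a call in one genotype without a call in the other is not a test of their difference. In this tissue RNA, fewer cells of a type and less RNA per cell cannot be told apart.

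Leaving out 1 library moved the number of interaction calls to 3 without cKI replicate 1 or 2 at 1 h or control replicate 2 or 3 at 1 h, and to 4 without naive cKI replicate 1 or naive control replicate 1 or 3. It was 13 without control replicate 1 at 1 h and 17 without naive control replicate 2. With lane as a covariate 1 gene, Hif3a, was called. The count for control mice was 34 without control replicate 3 at 1 h, 52 without naive control replicate 1 and 80 without naive control replicate 3. It was 83 without the second and 87 without the first control mouse at 1 h, and 13 with lane as a covariate.

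**Figure D1:**
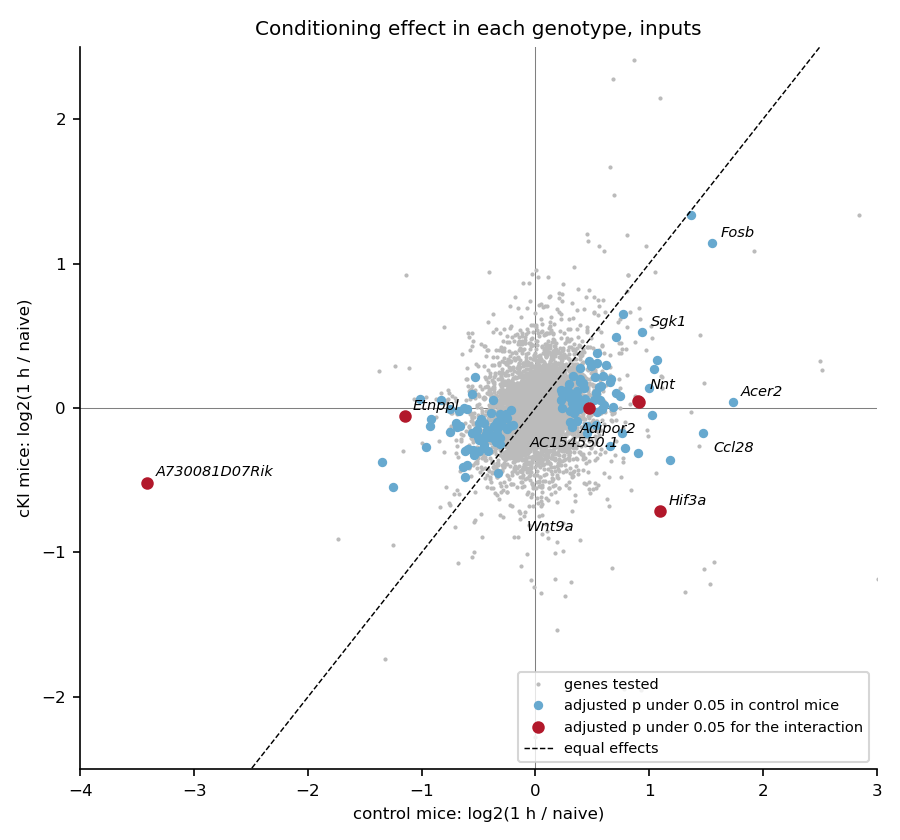
Change after conditioning in cKI mice (y axis, log2 of 1 h over naive) against the change in control mice (x axis, same scale) for the tested genes. Grey points are all genes tested (14 lie outside the axes), blue points the genes called in control mice, red points the 6 genes called for the interaction, and the dashed line marks equal changes. The red points lie off the dashed line, with Hif3a below it at -0.71 in cKI mice and 1.10 in controls.

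Hif3a (ENSMUST00000108492) had the smallest p of all genes for the interaction. It encodes a member of the hypoxia-inducible factor family, some forms of which restrain the activity of the other family members, and it is also known as a glucocorticoid-responsive gene. Its level was 9.47, 9.36 and 8.32 CPM in cKI mice at 1 h and 15.02, 14.1 and 15.3 in naive cKI mice, against 16.3, 14.9 and 17.1 in controls at 1 h and 8.02, 7.01 and 7.58 in naive controls. The cKI mice at 1 h and the naive controls were low and the naive cKI mice and the controls at 1 h were high, with no overlap between the low and the high groups. Hif3a fell by 0.71 (log2, SE 0.08, adjusted p 0.0091) in cKI mice after conditioning and rose by 1.10 (SE 0.08, adjusted p 6.6e-05) in control mice. The interaction was -1.81 (SE 0.12, 95% interval -2.06 to -1.56, adjusted p 1.3e-05). Read the other way, cKI differed from control by -0.83 at 1 h (adjusted p 0.0011) and by 0.98 in naive mice (adjusted p 0.00019). With lane as a covariate the interaction was -1.80 (adjusted p 0.00077). The call held in each of the 12 fits that left out 1 library.

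Nnt (ENSMUST00000099149) encodes the nicotinamide nucleotide transhydrogenase of the inner mitochondrial membrane, which makes NADPH. Its level was 28.9, 30.2 and 27.9 CPM in cKI mice at 1 h and 28.2, 28.3 and 27.9 in naive cKI mice, against 33.03, 40.2 and 40.6 in controls at 1 h and 20.8, 20.03 and 19.7 in naive controls. The 6 cKI mice lay together, between the naive controls below them and the controls at 1 h above them. The change in Nnt was 0.04 in cKI mice (SE 0.07), it rose by 0.91 in controls (SE 0.07, adjusted p 6.6e-05), and the interaction was -0.87 (SE 0.10, adjusted p 0.0066). Compared by genotype, cKI minus control was -0.39 at 1 h (adjusted p 0.044) and 0.48 in naive mice (adjusted p 0.0091). The call held in each of the 12 fits with 1 library left out and was lost with lane as a covariate (-0.90, adjusted p 0.069). A second called model, AC154550.1 (interaction -0.86, adjusted p 0.0066), held 98.2 to 99.5% of the Nnt counts in every library, so the pair cannot be read as separate genes. C57BL/6J mice are known to carry a deletion within Nnt that other C57BL/6 substrains lack.

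Of the 10 nearest measured genes to Nnt in the RefSeq order of GRCm38.p6 (5 on each side), 4 had an unadjusted interaction p under 0.05, all negative, and 0 were called. Over all genes 2.81% were negative with such a p. Tmem267, which encodes a transmembrane protein, averaged 5.65 CPM in cKI mice at 1 h and 7.25 in naive cKI mice, against 7.38 in controls at 1 h and 3.26 in naive controls, with an interaction of -1.54 (SE 0.26, adjusted p 0.096). Ccl28, which encodes a mucosal chemokine, averaged 7.93 CPM in cKI mice at 1 h and 8.97 in naive cKI mice, against 9.82 in controls at 1 h and 3.56 in naive controls, with an interaction of -1.65 (SE 0.28, adjusted p 0.096). Both rose in control mice, Tmem267 by 1.18 (adjusted p 0.01) and Ccl28 by 1.47 (adjusted p 0.0055). Fgf10, a fibroblast growth factor, had an interaction of -0.57 (unadjusted p 0.0018) and Emb, an adhesion protein, one of -0.20 (unadjusted p 0.043). The Ccl28 values are uncertain, because they could share reads with the model GM21967 (interaction -1.21), whose counts were 170 to 326% of those of Ccl28.

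Etnppl (ENSMUST00000072271), an astrocyte-enriched lyase that breaks down phosphoethanolamine, was called with a positive interaction. Its level was 26.2, 22.2 and 21.3 CPM in cKI mice at 1 h and 26.4, 19.7 and 26.6 in naive cKI mice, against 11.1, 11.4 and 11.01 in controls at 1 h and 25.7, 24.01 and 24.4 in naive controls. The 3 controls at 1 h were the low samples, and the other 9 mice overlapped. The cKI difference was -0.06 (SE 0.11), Etnppl fell by 1.15 in controls (SE 0.11, adjusted p 0.00026), and the interaction was 1.09 (SE 0.15, adjusted p 0.025). At 1 h cKI exceeded control by 1.06 (adjusted p 0.0015), against -0.03 in naive mice. Of the 23 astrocyte markers, Etnppl included, the median interaction was -0.01. Etnppl was the 1 positive call, beside 0.0135% of all genes called positive, and 1 further member had an unadjusted p under 0.05. In either direction 8.7% of the list had such a p, beside 4.89% of all genes. The Etnppl call was lost with lane as a covariate (1.07, adjusted p 0.19) and without cKI replicate 1 or 2 at 1 h, control replicate 2 or 3 at 1 h, or naive control replicate 1 or 3, with adjusted p up to 0.109 and log2 values of 0.96 to 1.16 over the 12 omissions.

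Adipor2 (ENSMUST00000032272) is a receptor for the fat-derived hormone adiponectin. Its level was 80.2, 80.1 and 82.3 CPM in cKI mice at 1 h and 79.9, 78.5 and 83.7 in naive cKI mice, against 90.2, 91.8 and 86.7 in controls at 1 h and 67.9, 62.3 and 64.1 in naive controls. As for Nnt, the 6 cKI mice lay between the naive controls below and the controls at 1 h above, with no overlap. The cKI difference was 0.00 (SE 0.05), Adipor2 rose by 0.47 in controls (SE 0.05, adjusted p 0.00035), and the interaction was -0.46 (SE 0.07, adjusted p 0.025). The naive genotype difference was 0.32 (adjusted p 0.0086). With lane as a covariate the interaction was -0.48 (adjusted p 0.18). The call was also lost, with adjusted p up to 0.118, when any 1 cKI mouse at 1 h, naive cKI replicate 1 or 3, control replicate 2 or 3 at 1 h, or naive control replicate 3 was left out.

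The sixth call, the uncharacterised model A730081D07Rik (ENSMUST00000153685), fell outside the naming rule and was singled out after its values were seen. It held 27, 26 and 26 counts in cKI mice at 1 h and 46, 43 and 30 in naive cKI mice, against 1, 5 and 7 in controls at 1 h and 47, 54 and 58 in naive controls. The controls at 1 h were low in every mouse and overlapped no other group. The interaction was 2.90 (SE 0.43, adjusted p 0.033), with a fall of 3.41 on the log2 scale in controls (adjusted p 0.00026), and at these counts the size is imprecise. Of the 12 fits without 1 library, 2 kept the call (those without control replicate 1 at 1 h or naive control replicate 2), the adjusted p in the others reached 0.142, and it was 0.17 with lane as a covariate.

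**Figure D2:**
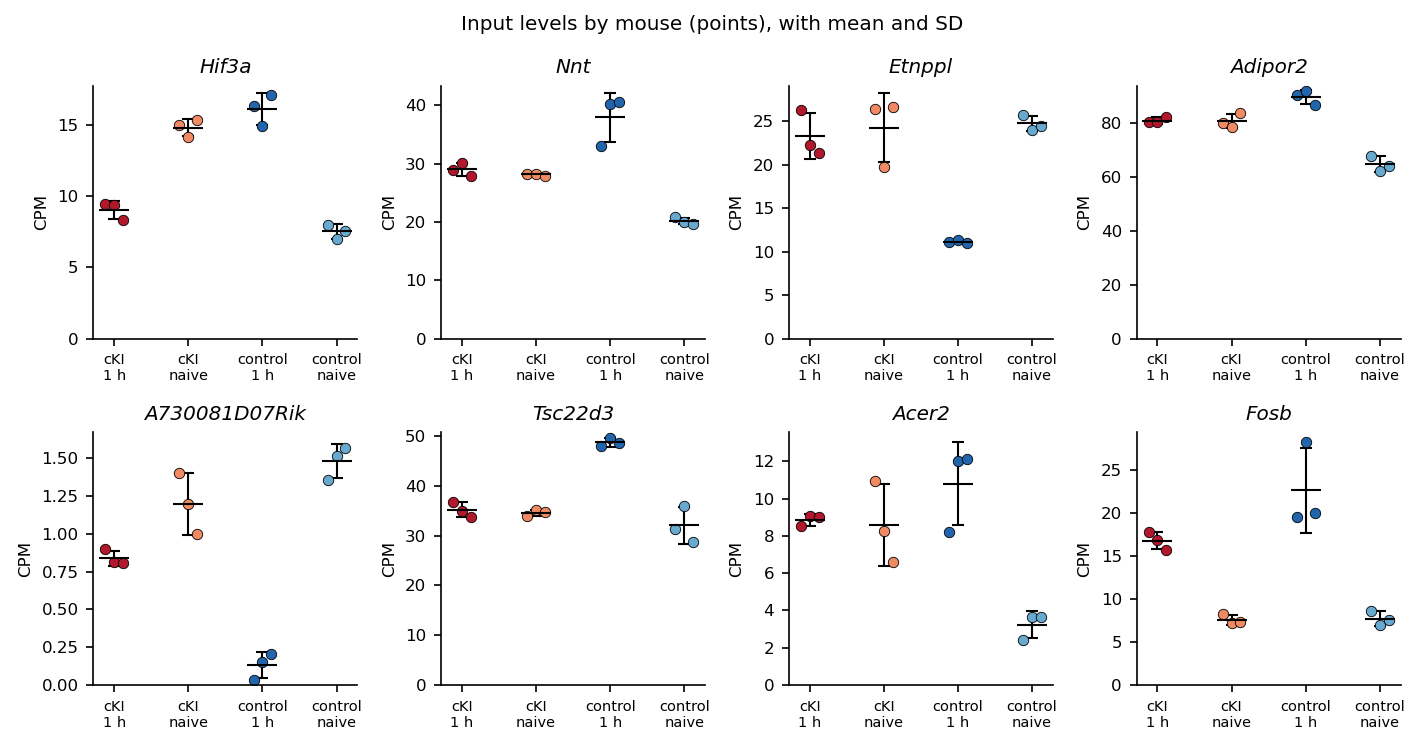
Level in CPM (y axis) of 8 genes in each of the 12 mice, by group (x axis), with the mean and SD of each group of 3 as a line and bar. Hif3a is low in cKI mice at 1 h and naive controls, and for Nnt and Adipor2 both cKI groups lie between the 2 control groups.

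The next 15 genes by p completed the 20 genes of the naming rule that were given by rank, and 0 of these 15 passed adjustment with edgeR (the DESeq2 Wald test called 15 of them and limma-voom 13). Of the 20, 15 interactions were negative and 5 positive, both cKI means lay between the 2 control means for 14, and the 3 mice at 1 h did not overlap the 3 naive mice for 5 of the 20 in cKI mice and for 20 of the 20 in controls. Over all genes tested 13.9% did not overlap in cKI mice and 16.7% in controls. That shape is a description, since the ranking uses these same values. Tsc22d3, which encodes the glucocorticoid-induced leucine zipper GILZ, had 36.8, 34.9 and 33.8 CPM in cKI mice at 1 h and 33.9, 35.2 and 34.6 in naive cKI mice, against 47.95, 49.6 and 48.6 in controls at 1 h and 31.4, 36.01 and 28.7 in naive controls. Its interaction was -0.58 (SE 0.10, adjusted p 0.096), with a cKI difference of 0.02 and a rise of 0.61 in controls (adjusted p 0.0015). The 3 controls at 1 h were above all other mice.

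Acer2, a ceramidase of the Golgi, had 8.51, 9.05 and 9.03 CPM in cKI mice at 1 h and 10.96, 8.25 and 6.57 in naive cKI mice, against 8.22, 12.04 and 12.1 in controls at 1 h and 2.42, 3.67 and 3.63 in naive controls. Its interaction was -1.69 (SE 0.29, adjusted p 0.096), and the naive controls were the low samples. Mat2a, which makes the methyl donor S-adenosylmethionine, had 129, 136 and 134 CPM in cKI mice at 1 h and 134, 130 and 129 in naive cKI mice, against 146, 141 and 148 in controls at 1 h and 117, 113 and 107 in naive controls, with an interaction of -0.34 (SE 0.06, adjusted p 0.13). The kinase gene Stk10 (-0.93, adjusted p 0.096), the RhoA exchange factor Net1 (-0.66, adjusted p 0.15), the Rab5 exchange factor Rin3 (-0.92, adjusted p 0.15) and the ubiquitin ligase adaptor Spsb1 (-0.45, adjusted p 0.16) were negative as well.

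Positive values were fewer among the ranked genes. Manba, the lysosomal enzyme β-mannosidase, had 10.5, 12.3 and 11.96 CPM in cKI mice at 1 h and 10.5, 12.1 and 12.7 in naive cKI mice, against 7.91, 7.09 and 7.12 in controls at 1 h and 11.6, 11.4 and 12.2 in naive controls. The controls at 1 h were below all other mice, and the interaction was 0.65 (SE 0.13, adjusted p 0.16). Nkd1, an antagonist of Wnt signalling, had 8.97, 8.99 and 8.26 CPM in cKI mice at 1 h and 9.37, 9.06 and 7.77 in naive cKI mice, against 8.85, 9.81 and 9.79 in controls at 1 h and 14.8, 14.7 and 14.5 in naive controls, so that here the naive controls stood above all other mice, with an interaction of 0.63 (adjusted p 0.13). A further Wnt antagonist, Sfrp1, was negative (-1.07, adjusted p 0.17), while the ephrin receptor Ephb3 (0.43, adjusted p 0.13) and the LIM-domain gene Lmcd1 (0.88, adjusted p 0.13) were positive.

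Glucocorticoid-induced genes, a list of 35 that were all measured, were mostly lower in the interaction: 28 of 35 values were negative, with a median of -0.24 against -0.0014 over all genes. An unadjusted p under 0.05 was reached by 14 negative and 1 positive members, beside 2.81% and 2.08% of all genes, and after adjustment by 1 negative (Hif3a) and 1 positive (Etnppl, which is on the astrocyte list too). Like the other lists, this one was chosen with earlier results of these data known. List counts beside the share of all genes are therefore a description and not a test. In cKI mice 1 member fell (Hif3a) and 0 rose, with a median change of -0.01. In controls 10 rose and 1 fell (Etnppl), with a median of 0.29, beside 0.534% of all genes called higher and 0.426% called lower. The list took 0.323 to 0.325% of counts in cKI mice at 1 h and 0.308 to 0.333% in naive cKI mice. Its share was 0.34 to 0.357% in controls at 1 h and 0.312 to 0.345% in naive controls, so the control groups overlapped. The median interaction was -0.38 with lane as a covariate, -0.39 without naive cKI replicate 2, -0.37 without naive control replicate 2 and -0.32 to -0.21 in the other omissions. With lane as a covariate 2 members rather than 10 were called higher in controls, and 4 without control replicate 3 at 1 h or 6 without naive control replicate 1.

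Within the list the transcription factor Klf15, a metabolic regulator induced by cortisol and corticosterone, had 30.2, 27.1 and 27.97 CPM in cKI mice at 1 h and 28.2, 26.6 and 29.8 in naive cKI mice, against 35.2, 33.2 and 36.1 in controls at 1 h and 23.9, 27.8 and 24.9 in naive controls. The controls at 1 h stood above all other mice, and the interaction was -0.44 (SE 0.10, unadjusted p 0.00068), with a rise of 0.45 in controls (adjusted p 0.0097). Mertk, a receptor for engulfing dying cells, had an interaction of -0.40 (unadjusted p 0.00043), the zinc-finger factor Zbtb16 one of -0.75 (unadjusted p 0.0031) and the arrestin-like gene Arrdc2 one of -0.61 (unadjusted p 0.0041). Pdk4, which restrains pyruvate oxidation, had -0.43 (unadjusted p 0.015) and the Krüppel-like factor Klf9 -0.22 (unadjusted p 0.001).

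Sgk1, a kinase induced by glucocorticoids, had 104, 108 and 104 CPM in cKI mice at 1 h and 75.9, 67.8 and 76.3 in naive cKI mice, against 109, 103 and 124 in controls at 1 h and 50.8, 75 and 49.6 in naive controls. It was higher at 1 h than in naive mice in both genotypes without overlap, by 0.52 in cKI mice (adjusted p 0.66) and by 0.94 in controls (adjusted p 0.0097), and the interaction was -0.41 (SE 0.19, unadjusted p 0.0516). Fkbp5, a chaperone that dampens the glucocorticoid receptor, had an interaction of -0.21 (SE 0.12) and the clock gene Per1 one of -0.20 (SE 0.11). Errfi1, which restrains the EGF receptor, had a change of 0.27 in cKI mice (adjusted p 0.29) and rose by 0.39 in controls (adjusted p 0.0048), with an interaction of -0.12. For the phosphatase Dusp1 (0.08, SE 0.24) and the glutamine synthetase Glul (-0.01, SE 0.05) the value was within 1 SE of 0.

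**Figure D3:**
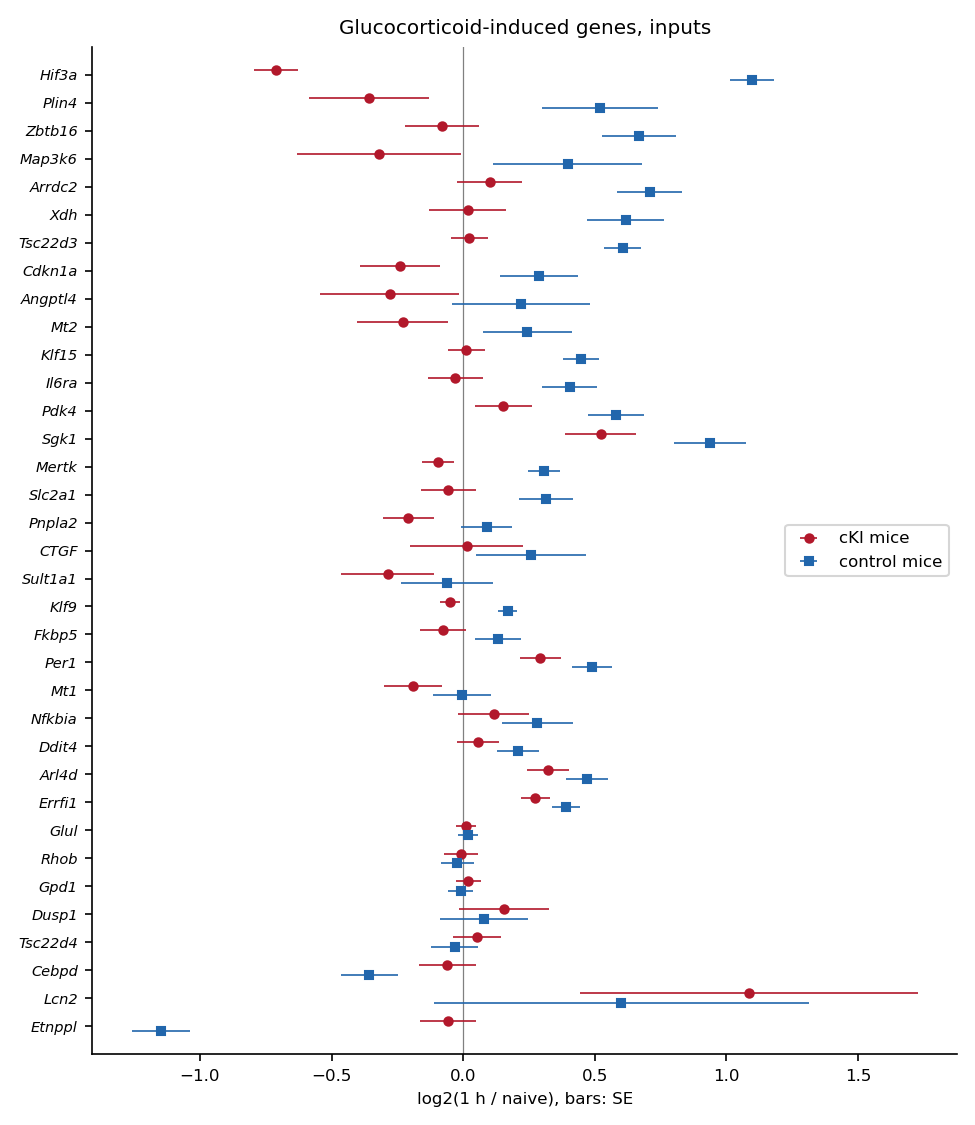
Change after conditioning (x axis, log2 of 1 h over naive, bars are SE) for the 35 glucocorticoid-induced genes, ordered by their interaction, with cKI mice as red circles above control mice as blue squares. For 28 genes the circle lies left of its square. Hif3a is at -0.71 in cKI mice against 1.10 in controls.

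Promoter windows of RefSeq (GRCm38.p6, 250 bases before to 50 after a start) were searched for the glucocorticoid receptor element AGAACA (one arm of the palindrome it binds), the E-box CACGTG bound by clock and bHLH factors and the cyclic AMP response element TGACGTCA, on both strands. Of all 32851 windows, 19% held this site, 7.15% the E-box and 1.79% the cyclic AMP element, and 0.0487% held 2 such arms facing each other with 3 bases between them, allowing the outermost base of one arm to be free. Of 28 glucocorticoid-list genes with an entry, 3 held an arm in at least 1 window, 6 an E-box, 3 a cyclic AMP element and 1 the facing pair. The shares above are per window and these counts are per gene, some with several windows, so they cannot be compared directly. Windows of 4 genes are shown, all of them list members whose levels are given by mouse above, with matches in capitals and 5′ to 3′ on the gene's strand. Hif3a (chr7:17062378-17062677, minus strand) held none, Tsc22d3 held an arm in 1 of its 3 windows (chrX:140600473-140600772, minus strand), Klf15 held 3 E-boxes (chr6:90462326-90462625, plus strand), and Sgk1 held the facing pair in 1 of its 6 windows (chr10:21993640-21993939, plus strand), where an E-box also overlaps a further arm.
Hif3a: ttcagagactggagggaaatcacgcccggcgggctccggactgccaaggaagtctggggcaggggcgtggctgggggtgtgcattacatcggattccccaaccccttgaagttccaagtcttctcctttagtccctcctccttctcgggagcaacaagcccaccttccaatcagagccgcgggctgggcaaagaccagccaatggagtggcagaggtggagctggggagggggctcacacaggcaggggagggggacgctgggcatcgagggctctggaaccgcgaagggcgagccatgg
Tsc22d3: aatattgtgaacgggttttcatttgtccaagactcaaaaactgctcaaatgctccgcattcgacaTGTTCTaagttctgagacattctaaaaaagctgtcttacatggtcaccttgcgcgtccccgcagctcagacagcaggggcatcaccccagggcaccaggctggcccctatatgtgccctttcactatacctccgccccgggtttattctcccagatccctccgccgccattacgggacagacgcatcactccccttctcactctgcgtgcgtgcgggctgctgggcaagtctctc
Klf15: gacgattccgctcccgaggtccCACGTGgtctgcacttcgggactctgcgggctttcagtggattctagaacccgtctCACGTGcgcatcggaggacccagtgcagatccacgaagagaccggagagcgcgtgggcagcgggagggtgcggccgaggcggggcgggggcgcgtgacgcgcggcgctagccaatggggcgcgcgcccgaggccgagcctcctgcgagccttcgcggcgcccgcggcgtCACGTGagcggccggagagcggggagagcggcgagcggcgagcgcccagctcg
Sgk1: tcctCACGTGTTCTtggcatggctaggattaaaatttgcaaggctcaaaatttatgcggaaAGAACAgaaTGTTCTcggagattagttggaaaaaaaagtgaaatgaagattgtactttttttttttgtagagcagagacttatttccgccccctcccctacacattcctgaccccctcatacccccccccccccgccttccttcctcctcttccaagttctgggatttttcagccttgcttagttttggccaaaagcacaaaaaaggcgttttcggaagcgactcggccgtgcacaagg
These matches describe letters in a short window, and binding was not measured.

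Endoplasmic reticulum chaperone and unfolded protein response genes, the pathway that senses misfolded secretory proteins, were measured for 27 of 28 members. In the interaction 23 of 27 were negative, the median was -0.07, 7 negative and 0 positive members had an unadjusted p under 0.05 (2.81% and 2.08% of all genes), and 0 were called. In cKI mice 0 were called, with a median change of 0.07, and in controls 7 rose (Xbp1, Pdia4, Manf, Herpud1, Dnajc3, Sdf2l1 and Hspa5), with a median of 0.16, beside 0.534% of all genes called higher. Xbp1, the spliced transcription factor of the pathway, had 90.9, 89.4 and 88.8 CPM in cKI mice at 1 h and 82.9, 89.6 and 89.5 in naive cKI mice, against 96.4, 107 and 102 in controls at 1 h and 77.4, 80.8 and 75.4 in naive controls. The controls at 1 h stood above all other mice and the naive controls below all others, with an interaction of -0.35 (SE 0.07, adjusted p 0.2). The disulfide isomerase Pdia4 had 67.8, 71.4 and 67.01 CPM in cKI mice at 1 h and 62.9, 68.3 and 67.1 in naive cKI mice, against 70.1, 90.9 and 86.4 in controls at 1 h and 61.6, 56.4 and 54.8 in naive controls, with an interaction of -0.46 (unadjusted p 0.0015). Manf (-0.37), a secreted survival factor of the reticulum, Sdf2l1 (-0.51), Herpud1 (-0.30) and Dnajc3 (-0.26), which inhibits eIF2α kinases, were negative too. The control count was 1 without control replicate 3 at 1 h, 3 without control replicate 2 at 1 h or naive control replicate 1, 4 without naive control replicate 3, and 0 with lane as a covariate.

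Oligodendrocyte and myelin markers were mostly positive. All 21 were measured, 20 interactions were positive (the exception was Mobp) and the median was 0.22. An unadjusted p under 0.05 was reached by 8 members, all positive, beside 2.08% of all genes, and 0 were called. In cKI mice 0 were called, with a median change of -0.15. In controls 11 fell, with a median of -0.40, beside 0.426% of all genes called lower. Between naive mice 11 of the 21 were called lower in cKI than in control mice, with a median of -0.37, beside 0.656% of all genes called lower. At 1 h 1 of the 21 was called, and the median was -0.12. The list took 0.514 to 0.542% of counts in cKI mice at 1 h and 0.533 to 0.609% in naive cKI mice, against 0.55 to 0.638% in controls at 1 h and 0.712 to 0.782% in naive controls, so the naive controls stood above all other mice.

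Opalin, a membrane protein of mature oligodendrocytes, had 12.6, 12.7 and 12.9 CPM in cKI mice at 1 h and 14.7, 14 and 12.9 in naive cKI mice, against 12.3, 14.1 and 10.4 in controls at 1 h and 19.9, 19.9 and 18.6 in naive controls, with an interaction of 0.55 (SE 0.13, unadjusted p 0.0011). Mog, a glycoprotein of the myelin surface, had 49.5, 50.5 and 49.4 CPM in cKI mice at 1 h and 62.1, 68.1 and 56.5 in naive cKI mice, against 56.3, 64.2 and 55.6 in controls at 1 h and 86.8, 87.9 and 81.4 in naive controls, with an interaction of 0.22 (SE 0.10, unadjusted p 0.0464). Naive controls were the high group for both genes. Aspa (0.49), which cleaves N-acetylaspartate, Fa2h (0.35), which makes hydroxylated myelin lipids, and Cnp (0.24) and Cldn11 (0.26), components of the sheath, also had an unadjusted p under 0.05. Mbp, myelin basic protein, had an interaction of 0.19 (unadjusted p 0.055). Members with an unadjusted p under 0.05 numbered 3 with lane as a covariate or without naive cKI replicate 3, 4 without control replicate 1 or 3 at 1 h or naive control replicate 1, 5 without any one of the cKI mice at 1 h, and 12 without control replicate 2 at 1 h; the median lay between 0.14 and 0.31. The 11 markers called lower in controls became 4 without control replicate 1 or 3 at 1 h or naive control replicate 1, and 0 with lane as a covariate.

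**Figure D4:**
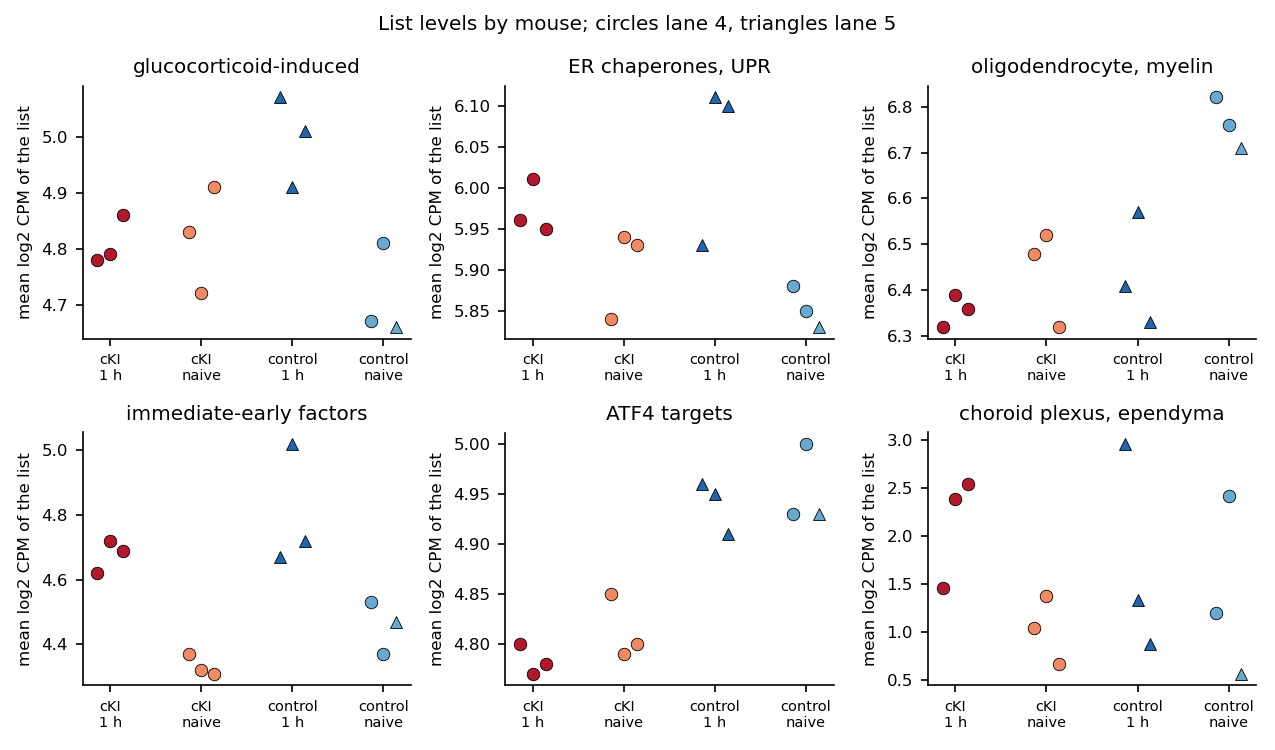
Mean log2 CPM over the measured members of 6 gene lists (y axis) in each of the 12 mice by group (x axis), with circles for lane 4 and triangles for lane 5. For the myelin list the naive controls lie at 6.71 to 6.82, above the 6.32 to 6.57 of all other mice, and for the glucocorticoid list the controls at 1 h lie at 4.91 to 5.07.

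For immediate-early transcription factors no interaction was called. Of 29 measured, 0 had an unadjusted p under 0.05, the values ran from -0.41 to 0.27 and the median was 0.00. The median change was 0.28 in cKI mice, where 1 rose (Fosb), and 0.31 in controls, where 6 rose (3 without control replicate 2 or 3 at 1 h or naive control replicate 2 or 3, and 1 with lane as a covariate). Over all genes 0.00676% were called higher in cKI mice and 0.534% in controls. Fosb, which encodes an AP-1 subunit, had 17.7, 16.8 and 15.7 CPM in cKI mice at 1 h and 8.27, 7.25 and 7.27 in naive cKI mice, against 19.6, 28.3 and 20.01 in controls at 1 h and 8.62, 6.98 and 7.55 in naive controls, without overlap between 1 h and naive in either genotype. It rose by 1.14 in cKI mice (SE 0.14, adjusted p 0.0091) and by 1.55 in controls (SE 0.13, adjusted p 0.00013), with an interaction of -0.41 (SE 0.19, unadjusted p 0.0504).

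Fos, the related AP-1 subunit, had 16.5, 18.6 and 15.6 CPM in cKI mice at 1 h and 9.004, 7.95 and 6.24 in naive cKI mice, against 14.7, 30.2 and 15.5 in controls at 1 h and 13.5, 6.79 and 10.6 in naive controls. Naive control replicate 1 was nearly as high as 2 of the controls at 1 h, and control replicate 2 at 1 h was the highest of all, so the interaction of 0.16 (SE 0.44) had a 95% interval of -0.81 to 1.12. Intervals were as wide for Arc, a regulator of glutamate receptor trafficking (0.05, -0.72 to 0.83), and Npas4, a neuronal activity factor (0.01, -0.85 to 0.86). For Egr1 the value was -0.35 (SE 0.23), for Egr2 -0.04 (SE 0.39), for Junb 0.26 (SE 0.20) and for Nr4a1 0.26 (SE 0.24). The scaffold gene Homer1 had -0.03 (SE 0.09) and the neurotrophin Bdnf 0.04 (SE 0.08). Among 35 immediate-early effectors and feedback inhibitors the median was -0.02, with 2 negative members at an unadjusted p under 0.05 and 0 called. In either direction 5.71% of this list had such a p, beside 4.89% of all genes.

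The third gene called in cKI mice besides Hif3a and Fosb was Wnt9a, a Wnt ligand, chosen here after its values were seen. It had 4.49, 4.18 and 4.77 CPM in cKI mice at 1 h and 9.10, 8.39 and 7.43 in naive cKI mice, against 5.61, 5.57 and 6.56 in controls at 1 h and 6.57, 7.10 and 6.09 in naive controls, fell by 0.89 in cKI mice (SE 0.11, adjusted p 0.0091) and had an interaction of -0.74 (SE 0.15, adjusted p 0.2). The naive cKI mice were above all other mice. The number of genes called in cKI mice was 0 without cKI replicate 1 or 2 at 1 h or naive cKI replicate 1, 6 without control replicate 2 at 1 h and 10 without naive control replicate 2.

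No gene of the eIF2 pathway itself was called for the interaction. Eif2s1, which encodes eIF2α, had 43.4, 43.4 and 43.4 CPM in cKI mice at 1 h and 45.3, 39.8 and 44.8 in naive cKI mice, against 36.3, 36.3 and 35.3 in controls at 1 h and 33.3, 35.5 and 36.6 in naive controls, so all 6 cKI mice were above all 6 controls. The genotype difference was 0.27 at 1 h (adjusted p 0.068) and 0.30 in naive mice (adjusted p 0.025), and the interaction was -0.03 (95% interval -0.20 to 0.14). Counts per gene here do not separate the knock-in allele from the normal one. Atf4, the transcription factor whose translation follows eIF2α phosphorylation, differed by genotype by -0.33 at 1 h (adjusted p 0.043) and -0.33 in naive mice (adjusted p 0.021), with an interaction of 0.00 (-0.18 to 0.18). For the phosphatase subunit Ppp1r15a the interaction was -0.01 (SE 0.14), for the stress factor Ddit3 0.11 (SE 0.12) and for the initiation factor Eif5 0.10 (SE 0.06). ATF4 targets, of which 48 of 52 were measured, had a median of 0.00 with 2 negative members at an unadjusted p under 0.05: the amino acid transporter Slc7a5 (-0.31, unadjusted p 0.001) and Herpud1 (-0.30, unadjusted p 0.0046). In either direction 4.17% of these targets had such a p, beside 4.89% of all genes. The 25 eIF2 subunits, kinases, phosphatases and regulators had a median of 0.02, and the 18 transcripts with eIF2-sensitive upstream frames one of -0.02.

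Lists of clock and defence genes leaned negative without calls. Of 19 circadian clock genes 17 were negative with a median of -0.11, and Ciart (-0.61, unadjusted p 0.0049), Nr1d1 (-0.27, unadjusted p 0.0057) and Per2 (-0.43, unadjusted p 0.011), all repressors of the clock, had the smallest p. Among 28 interferon-response genes 4 negative members had an unadjusted p under 0.05, beside 2.81% of all genes. The GTPase Gbp2 led them (-1.12, unadjusted p 0.0083). The interferon median of -0.15 was 0.09 with lane as a covariate and ran from -0.32 to 0.16 over the omissions. Its sign therefore depends on single libraries. Heat shock proteins (24 genes) had a median of -0.05 and proteasome subunits (34) one of 0.07. The 74 measured cytosolic ribosomal protein genes had a median of 0.05 and 73 nuclear oxidative phosphorylation genes one of 0.06. These turned to -0.09 and -0.02 with lane as a covariate, and the proteasome median turned to -0.01. With 1 library left out the ribosomal median ran from -0.08 to 0.1 and the oxidative phosphorylation median from -0.03 to 0.11. Of 13 genes of the mitochondrial genome 0 had an unadjusted p under 0.05, and the value of -3.19 for mt-Nd6 goes with the high naive cKI replicate 3.

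Synaptic genes and markers of neuronal types had medians near 0. Glutamate receptors and scaffolds (45 genes) had a median of -0.03, GABA-A receptor and inhibitory synapse genes (18) one of -0.04, plasticity kinases (31) one of -0.02 and voltage-gated channels (45) one of -0.02, with 1 member in all at an unadjusted p under 0.05. With lane as a covariate these medians turned positive, to 0.07, 0.06, 0.02 and 0.07. With 1 library left out they also took either sign. They ran from -0.1 to 0.05, -0.1 to 0.05, -0.05 to 0.01 and -0.07 to 0.05. The medians were -0.02 for excitatory neuron, -0.02 for dentate granule cell, 0.01 for CA1, 0.06 for CA2 and CA3 and 0.03 for inhibitory neuron markers, and between 0.05 and 0.10 with lane as a covariate. Camk2a had an interaction of -0.06 (SE 0.16), Gad1, which makes GABA, one of 0.05 (SE 0.08), the peptide Sst one of 0.10 (SE 0.11) and Rpl22, whose tagged copy marks the ribosomes here, one of -0.28 (SE 0.25).

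Markers of other cells and of tissue outside the hippocampus were given beside these results, and their part in them was not tested. The 21 microglia markers had a median of -0.08 with Cx3cr1 at 0.05 (SE 0.14), and astrocyte Gfap was at -0.04 (SE 0.08). Of 24 vessel markers 3 were positive and 1 negative at an unadjusted p under 0.05, beside 2.08% and 2.81% of all genes. The tight-junction gene Cldn5 was at 0.59 (unadjusted p 0.0073), with naive controls highest by mean. It averaged 23.2 CPM in cKI mice at 1 h and 25 in naive cKI mice, against 23.1 in controls at 1 h and 37.5 in naive controls. Choroid plexus and ependymal markers varied widely between mice: 20 of 23 were measured, the median was 0.40, or -0.50 with lane as a covariate and -0.10 to 1.03 over the omissions, and 0 had an unadjusted p under 0.05. Ttr, the thyroid hormone carrier of choroid plexus, had 39.2, 211 and 278 CPM in cKI mice at 1 h and 3.48, 26.4 and 11.3 in naive cKI mice, against 351, 22.3 and 2.88 in controls at 1 h and 9.43, 180 and 2.03 in naive controls, so mice of the same group differed widely. Of 7 blood markers 4 were measured, all negative, with a median of -0.47, and Hba-a1 did not pass the filter. Thalamus, striatum, cortex and leptomeningeal lists had medians of -0.02, -0.09, -0.07 and 0.13.

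**Figure D5:**
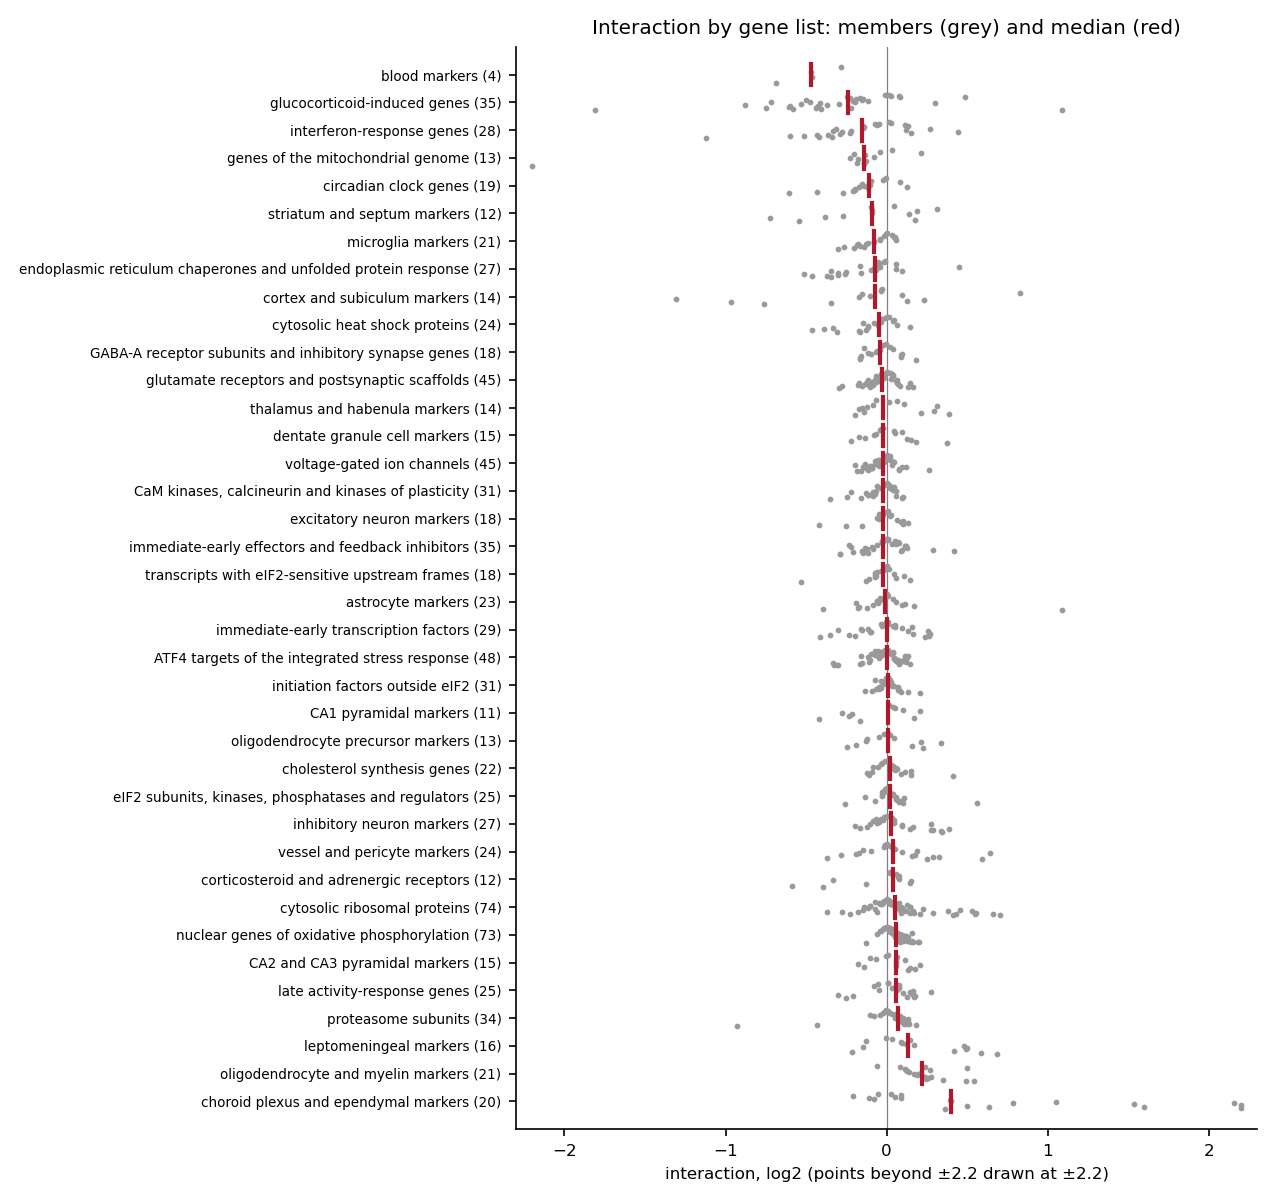
Interaction (x axis, log2) of every measured member of 38 gene lists, one list per line, with members as grey points, the list median as a red mark and values beyond 2.2 drawn at the edge. The glucocorticoid median lies left of 0 at -0.24, the myelin median right of it at 0.22, and the immediate-early transcription factors centre on 0.00.

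The pulldown libraries of the same 12 mice, which enrich RNA on tagged ribosomes of Cre-positive cells, were read for the genes named from the inputs. Lanes were confounded with the groups here too: all naive cKI pulldowns and cKI replicate 1 at 1 h were in lane 5 and the other pulldowns in lane 6. Hif3a averaged 1.36 CPM in cKI mice at 1 h and 1.62 in naive cKI mice, against 2.38 in controls at 1 h and 1.18 in naive controls. Etnppl averaged 1.55 CPM in cKI mice at 1 h and 1.35 in naive cKI mice, against 0.569 in controls at 1 h and 1.48 in naive controls. Both are far below their input levels, and the part of input RNA carried over into these pulldowns was not tested. The pulldown interaction was -1.26 for Hif3a (unadjusted p 0.0029), -0.75 for Nnt (unadjusted p 0.00037), 1.56 for Etnppl (unadjusted p 0.00029) and 2.72 for A730081D07Rik. It was -0.09 for Adipor2 (unadjusted p 0.43), 0.14 for Tsc22d3 (unadjusted p 0.26) and 0.05 for Mat2a (unadjusted p 0.57). For Manba it was 1.62 (unadjusted p 5e-06) and for Xbp1 -0.48 (unadjusted p 0.0035). A test of the pulldown interaction against the input interaction called 0 of 14783 genes (0%) with edgeR, and 976 had an unadjusted p under 0.05. The adjusted p of that difference was 0.70 for Adipor2 and 0.70 for Tsc22d3, with differences of 0.35 and 0.70 on the log2 scale. Their unadjusted p values were 0.0087 and 0.00078. For Manba the difference was 0.94 (unadjusted p 0.0017, adjusted p 0.70). The mice are the same in both fractions, so these values are not an independent repeat.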

How the data were processed

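The table that the authors deposited holds raw, unnormalised counts of every library, and each gene is given as a symbol with 1 Ensembl transcript. Per the labels' protocols, poly(A) libraries were made with a directional kit from the pooled hippocampi of 1 mouse each and sequenced as paired ends, so replicates are separate mice. Tools named in the submitters' processing notes are Bowtie, cutadapt and DESeq2. Counter, genome build and strand setting: not given in the sources used here. Of 51733 genes, 47629 matched the gene name table (92.1%). All columns of the table were mapped to samples.

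The counts of the 12 inputs were fitted with edgeR 4.0.16 in R 4.3.3 by the robust quasi-likelihood test after TMM scaling, with a mean for each group, for genes with a CPM of 1 or more in at least 3 libraries. Benjamini-Hochberg adjustment ran over all 14783 genes, with a threshold of 0.05. The threshold was passed ("called") in either direction. CPM here are counts scaled to a common library total after TMM scaling, SE stands for standard error (log2 scale), and a list score is the mean of log2 CPM with a prior count of 2. The pulldown interaction was fitted on the 12 pulldowns alone, with a mean for each group. Its difference from the input interaction was fitted on all 24 libraries, with mouse as a block. Depth was 28.8 to 37.7 M counts per input and 30.6 to 43.5 M per pulldown.

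Alternatives were DESeq2 size factors, the DESeq2 1.42.0 Wald test, limma-voom 3.58.1 with quality weights, other filters, a replicate block, lane as a covariate and leaving out each library. The edgeR fit of all genes was tested on simulated counts with known changes. Genes were named by a rule. It took called genes plus the smallest p values up to 20 in all, without clone or Rik names. Such ranked genes needed a mean log2 CPM of at least 1. The rule also took the 3 members of each of 38 lists with the smallest p, and a set of 30 common genes, 29 of which were measured. A selection of these is printed. The question, the lists and the named genes were chosen with earlier results of these data known. Figures were drawn with Python 3.11.15.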

Additional observations from a re-analysis of the deposited data

Results flagged for a closer look

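The change after conditioning differed between cKI and control mice, by the test of the interaction, for 6 genes. The log2 values were -1.81 for Hif3a, -0.87 for Nnt, -0.86 for AC154550.1, 1.09 for Etnppl, -0.46 for Adipor2 and 2.90 for A730081D07Rik. AC154550.1 holds nearly the same reads as Nnt. With lane as a covariate only Hif3a kept its call, and lane and group were largely confounded.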

How the results depend on the processing

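The interaction count of 6 was 31 with the DESeq2 Wald test, 27 with limma-voom, 10 without a filter on low counts (29017 genes tested) and 1 with lane as a covariate, and it ran from 3 to 17 with 1 library left out. All 6 genes were shared with the DESeq2, limma-voom and unfiltered calls. DESeq2 size factors and edgeR's own filter each gave 6. The count of 3 in cKI mice was 23 with DESeq2 and 9 with limma-voom, and 0 to 10 with 1 library left out. The count of 142 in controls was 316 with DESeq2, 318 with limma-voom and 13 with lane as a covariate, and 34 to 145 with 1 library left out. The cause of these differences was not tested. No value of a named gene that was called changed its sign under any of these alternatives.

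Same-numbered mice of different groups did not deviate together: over 18 pairs of libraries the correlation of deviations ran from -0.171 to 0.146, and 3 were over 0.1, so the numbers do not pair the mice. With the replicate number as a block 4 genes were called for the interaction (Hif3a, Nnt, AC154550.1 and Etnppl), with Adipor2 at -0.47 (adjusted p 0.15) and A730081D07Rik at 2.90 (adjusted p 0.15). The median standard error of 0.119 limits what 3 mice per group could show, and the smallest called value was 0.46.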
